A study of Mus musculus with 8 samples.

Results

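The Gadd45 family and p53 target genes described here are Gadd45a, Gadd45b, Gadd45g, Cdkn1a, Mdm2, Trp53, Ccng1, Bax, Btg2 and Phlda3. They are 10 of the 25229 gene symbols counted, and were picked by symbol with their sense-strand counts already known, so their levels are described and not tested. RNA sequencing was done on liver cells of 8 C57BL/6 mice that were all Ifih1-/- and Alb-Cre+. The groups were Adar1 flox/flox (3 mice), Adar1 wt/flox (2 mice) and Adar1 wt/wt (3 mice), and the study asked what loss of ADAR1 does where MDA5 is absent. All 3 libraries labelled flox/flox were used, although the submitters' statement of the design gives n as 2 for that genotype. In each group replicate 1 was 11 weeks old and replicate 2 was 9 weeks old, and replicate 3 of flox/flox and of wt/wt was 7 weeks old. Alb-Cre is a recombinase driven by the albumin promoter and acts in hepatocytes. Which other liver cells keep their alleles was not tested. Ifih1 encodes MDA5, a sensor of double-stranded RNA, and Adar encodes ADAR1, which edits such RNA. Because the wt/wt mice also lack Ifih1 and carry Cre, no group is a plain wild type. The cells came from collagenase-perfused livers by low-speed pelleting, red cell lysis and a Percoll gradient.

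The transcription factor p53, encoded by Trp53, is held low by the ubiquitin ligase MDM2 and is stabilised by DNA damage and other stress. It then switches on genes that stop the cell cycle, repair DNA or start apoptosis, and Mdm2 itself, which closes a feedback loop. The 3 GADD45 proteins are small stress-induced binders of the MAP kinase kinase kinase MEKK4, PCNA and cell-cycle kinases, and in liver they answer to fasting, injury and regeneration as well as to p53.

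Genotype names below are those of the labels. Adar had 49.4, 35.9 and 42.0 CPM in the flox/flox libraries, 22.0 and 31.8 CPM in wt/flox and 28.1, 30.0 and 53.6 CPM in wt/wt, where CPM, the standard depth-scaled unit, are read counts relative to the TMM-scaled library size. Adar was therefore not lower in flox/flox. The counts cover the whole gene and the sources used here do not name the floxed exons, so this total does not check the deletion. Ifih1 had 0 to 4 reads in each library. Xist and Y-linked reads went against the labelled sex in 2 libraries, flox/flox 1 (labelled female, 31 Xist and 21255 Y-linked reads) and flox/flox 2 (labelled male, 246646 Xist and 0 Y-linked reads). Each of these carries the sex labelled for the other, and whether their labels were exchanged was not tested. Every direction below that involves flox/flox rests on those labels. Sense gene reads ranged from 75875711 to 132303735 per library. A batch mark in the deposited material separates the 5 flox/flox and wt/flox libraries from those of wt/wt, and multiply aligned reads made up 3.92% to 4.32% in flox/flox, 4.89% to 4.98% in wt/flox and 8.97% to 10.9% in wt/wt. Sense reads in no gene made up 34.5% to 40.0% in flox/flox, 31.7% to 37.3% in wt/flox and 22.2% to 28.1% in wt/wt, and ambiguous ones made up 0.317% to 0.341% in flox/flox, 0.324% to 0.419% in wt/flox and 0.511% to 0.668% in wt/wt. Their part in the differences from wt/wt was not tested. Genotype and that mark cannot be told apart against wt/wt, whereas flox/flox against wt/flox lies within 1 mark. Sex and age are not balanced in that comparison, however. Both wt/flox libraries were male by label and by reads, whereas flox/flox held both sexes by either, and a 7-week-old mouse was only in flox/flox. Markers of hepatocytes were all detected in every library, with summed levels of 175925 to 245434 CPM in flox/flox, 166746 to 187594 CPM in wt/flox and 111603 to 127147 CPM in wt/wt. Those of sinusoidal endothelium summed to 65.2 to 141 CPM in flox/flox, 78.6 to 85.3 CPM in wt/flox and 157 to 246 CPM in wt/wt. The 12 Kupffer cell and monocyte markers summed to 38.5 to 131 CPM in flox/flox, 38.5 to 40.8 CPM in wt/flox and 69.5 to 287 CPM in wt/wt. A library stood apart from its group mates in both groups of 3. The chi-square of counts per degree of freedom was 761 and 643 for flox/flox 1 with its mates, against 222 between these, and 507 and 486 for wt/wt 3 with its mates, against 109 between these. By their reads, flox/flox 1 was the only male library of flox/flox. Likewise wt/wt 3, with 115966 Xist reads, was the only female library of wt/wt. The part of sex in how these libraries stood apart was not tested. In wt/wt 3 the Kupffer cell and monocyte markers summed to 287 CPM, against 70.5 and 69.5 CPM in wt/wt 1 and 2, and the 8 neutrophil markers to 9.66 CPM, against 0.995 and 0.981 CPM. In flox/flox 1 the Kupffer cell and monocyte sum was 57.2 CPM and the neutrophil sum 0.877 CPM, both within the range of the other flox/flox libraries. The part of these other cells in the results was not tested, and in bulk samples fewer cells of a type and less RNA per cell cannot be told apart.

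Promoter windows are shown for the decamer of which p53 binds a pair, so a single match is not a p53 site. The p53 decamer, to be found on both strands alike because its consensus is a palindrome, matched without mismatch in 6 of the 11 RefSeq promoter windows of the members (GRCm38.p6, 250 bases before to 50 after the start). It matched in 8.36% of all 32851 such windows. The 6 were those of Gadd45a, Cdkn1a, Mdm2, Trp53, Ccng1 and Bax. Cdkn1a has 2 annotated starts, and its upstream window was the 1 member window with a pair of decamers, at a spacing of 0 to 13 bases and with at most 1 mismatch in each. Such a pair stood in 1.39% of all windows. Capitals mark the matched decamers, and each stretch is read 5′ to 3′ on the gene's own strand.
Cdkn1a: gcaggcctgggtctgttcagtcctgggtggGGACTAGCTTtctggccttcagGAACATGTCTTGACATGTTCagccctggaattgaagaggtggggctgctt
Gadd45a: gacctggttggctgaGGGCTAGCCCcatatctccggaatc
Mdm2: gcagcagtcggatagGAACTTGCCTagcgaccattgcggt
Trp53: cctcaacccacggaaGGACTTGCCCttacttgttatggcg
Ccng1: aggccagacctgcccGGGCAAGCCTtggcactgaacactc
Bax: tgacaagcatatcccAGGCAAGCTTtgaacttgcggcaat
The Cdkn1a stretch lies at chr17:29090876-29090977 on the plus strand and holds 3 decamers, the last with 1 mismatch, spaced by 12 bases and by 0 bases. The Gadd45a stretch is at chr6:67037423-67037462 (minus strand), that of Mdm2 at chr10:117710920-117710959 (minus), that of Trp53 at chr11:69580269-69580308 (plus), that of Ccng1 at chr11:40755447-40755486 (minus) and that of Bax at chr7:45467075-45467114 (minus). No exact decamer stood in the windows of Gadd45b, Gadd45g, Btg2 or Phlda3, which says only that these letters are not in 300 bases around the start. Gadd45b and Gadd45g shared TATAAA on the gene's strand, found in 8.32% of all windows and in no other member window. CCAAT on either strand was in 7 of the 11 member windows and in 37.4% of all windows.

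**Figure D1:**
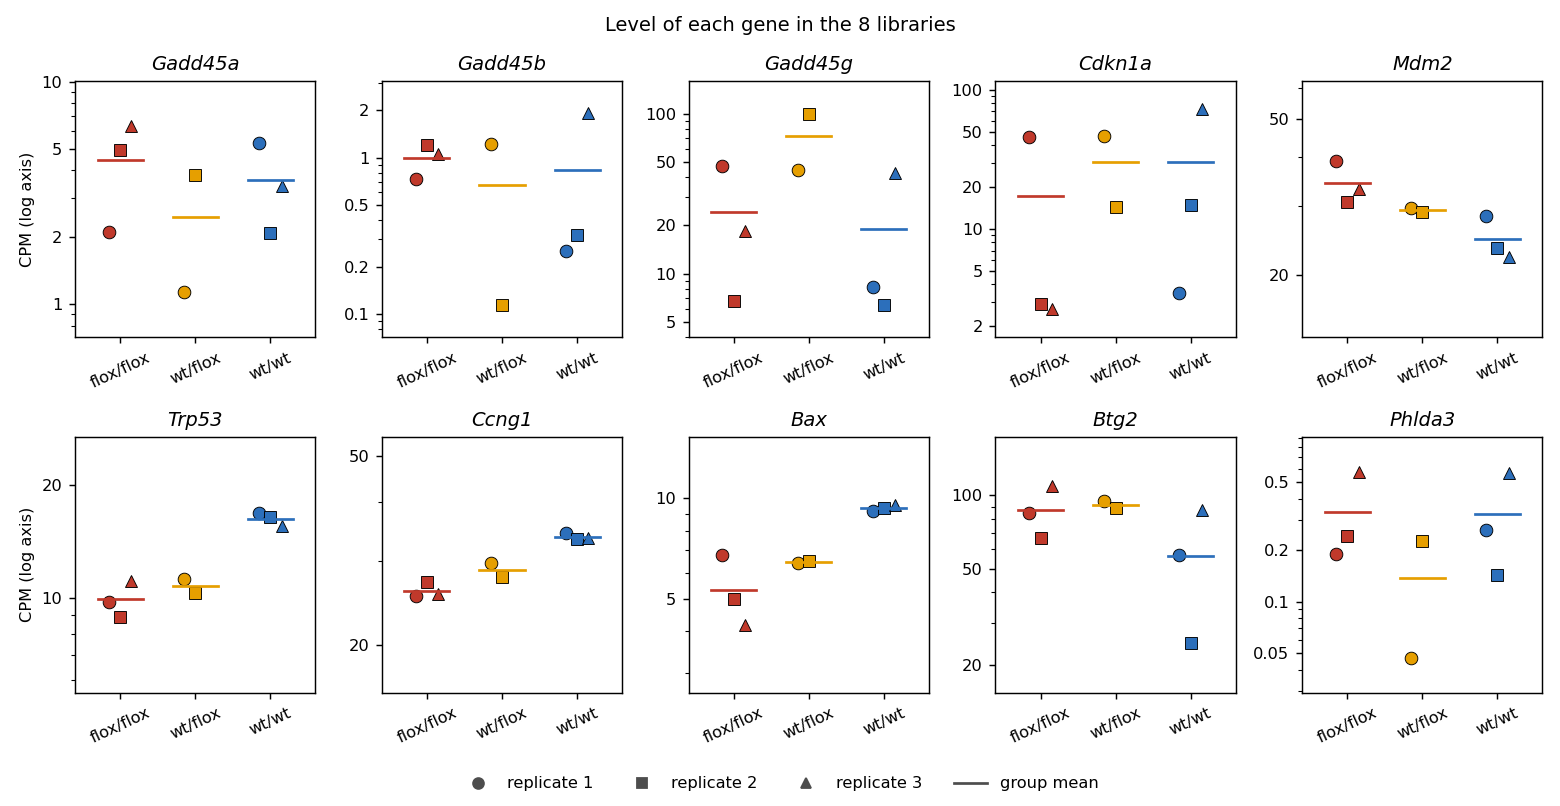
Level of each of the 10 genes in every library, in CPM on a log axis, with flox/flox, wt/flox and wt/wt from left to right, a symbol per replicate number and a line at the group mean. Mdm2 lies higher and Trp53, Ccng1 and Bax lie lower in all flox/flox libraries than in all wt/wt libraries, whereas Cdkn1a spreads at least 3.28-fold within each genotype.

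The members fell into genes that were tight within a genotype and genes that varied several-fold between mice of 1 genotype, as the plot of levels by library shows. The spread within groups, as a pooled SD on the log2 scale, was 0.05 for Ccng1, 0.12 for Trp53, 0.16 for Mdm2 and 0.22 for Bax, against a median of 0.26 over all 14728 genes that passed the filter on low counts. It was 2.10 for Cdkn1a, 1.48 for Gadd45b, 1.34 for Gadd45g, 1.06 for Phlda3, 0.87 for Gadd45a and 0.63 for Btg2. The spread was not wide in every group, since the highest Gadd45b level was 1.65 times the lowest within flox/flox. Ccng1 thus stood at percentile 0.353 of all genes and Cdkn1a at percentile 99.0. The share of the variance of log2 CPM that lay within genotypes was 5.21% for Ccng1, 7.23% for Trp53, 18.7% for Bax and 27.9% for Mdm2, and 83.1% for Cdkn1a, 82.1% for Gadd45b and 77.2% for Gadd45a. Over all genes its median was 45.4%. Per kilobase of exon, the members' mean levels over the 8 libraries ran in the order Gadd45g (29.1 CPM per kb), Btg2 (27.9), Ccng1 (8.44), Cdkn1a (7.15), Mdm2 (5.80), Bax (4.52), Trp53 (3.09), Gadd45a (2.06), Gadd45b (0.536) and Phlda3 (0.181). None of the 9 pairs of neighbours in that order kept it in all 8 libraries. Btg2 stayed above Ccng1, Bax above Trp53 and Gadd45a above Gadd45b in 7 of 8, and the other neighbours kept their order in 3 to 6 of 8, which is within their spread. All 10 passed the filter, Phlda3 with 4 to 76 reads per library and Gadd45b with 8 to 211.

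Trp53, the p53 gene itself, lies at chr11:69580359-69591873 on the plus strand. It had 9.76, 8.88 and 11.1 CPM in flox/flox and 11.2 and 10.3 CPM in wt/flox, against 16.9, 16.4 and 15.5 CPM in wt/wt. Both groups with a floxed allele lay below every wt/wt library, and the 2 overlapped each other. The fitted log2 fold change was -0.72 ± 0.12 (SE) in flox/flox against wt/wt, -0.60 ± 0.13 in wt/flox against wt/wt and -0.12 ± 0.13 in flox/flox against wt/flox. Mdm2 (chr10:117688875-117710758, minus strand) encodes the ligase that marks p53 for degradation and is itself a p53 target. Its levels were 39.1, 30.8 and 33.1 CPM in flox/flox and 29.7 and 28.9 CPM in wt/flox, against 28.4, 23.4 and 22.2 CPM in wt/wt. The 3 groups followed each other without overlap, but wt/flox 2 and wt/wt 1 differed by less than 1 CPM. For Mdm2 the fitted log2 fold change was 0.48 ± 0.14 in flox/flox against wt/wt, 0.23 ± 0.15 in flox/flox against wt/flox and 0.25 ± 0.15 in wt/flox against wt/wt.

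Ccng1 (chr11:40748552-40755311, minus strand) encodes cyclin G1, a p53 target that recruits a phosphatase to MDM2. It had 25.3, 27.2 and 25.6 CPM in flox/flox, 29.8 and 27.8 CPM in wt/flox and 34.4, 33.4 and 33.6 CPM in wt/wt. The groups did not overlap, and flox/flox was lowest. Its fitted log2 fold change was -0.38 ± 0.09 in flox/flox against wt/wt, -0.15 ± 0.10 in flox/flox against wt/flox and -0.23 ± 0.10 in wt/flox against wt/wt. Bax (chr7:45461697-45466898, minus strand) encodes a pore-forming protein of the outer mitochondrial membrane that carries out apoptosis. Bax had 6.78, 4.99 and 4.19 CPM in flox/flox, 6.39 and 6.52 CPM in wt/flox and 9.16, 9.38 and 9.56 CPM in wt/wt. Every flox/flox and wt/flox library lay below every wt/wt library, and the flox/flox libraries spread more than the others. For Bax the fitted log2 fold change was -0.82 ± 0.18 in flox/flox against wt/wt, -0.28 ± 0.20 in flox/flox against wt/flox and -0.54 ± 0.20 in wt/flox against wt/wt. The annotated gene Gm45808 overlaps Bax on the same strand, and how the authors' counting shared reads between them is not given in the sources used here.

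Across the 8 libraries the smallest profile distances among the members were those among Trp53, Ccng1 and Bax. The root mean square distance of centred log2 CPM was 0.20 between Trp53 and Ccng1, 0.24 between Trp53 and Bax and 0.28 between Ccng1 and Bax. Genes that vary little are close by this measure whatever their direction, and Mdm2, higher in flox/flox, was next at 0.40 from Ccng1. The SD of log2 CPM over the 8 libraries was 0.18 for Ccng1, 0.36 for Trp53 and 0.44 for Bax. The distances of Ccng1 were no smaller than its own SD, so they do not tell whether it shares a profile with Trp53 or Bax. The distance between Trp53 and Bax, 0.24, was below the SD of each. The farthest pair was Cdkn1a and Phlda3 at 2.38.

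**Figure D2:**
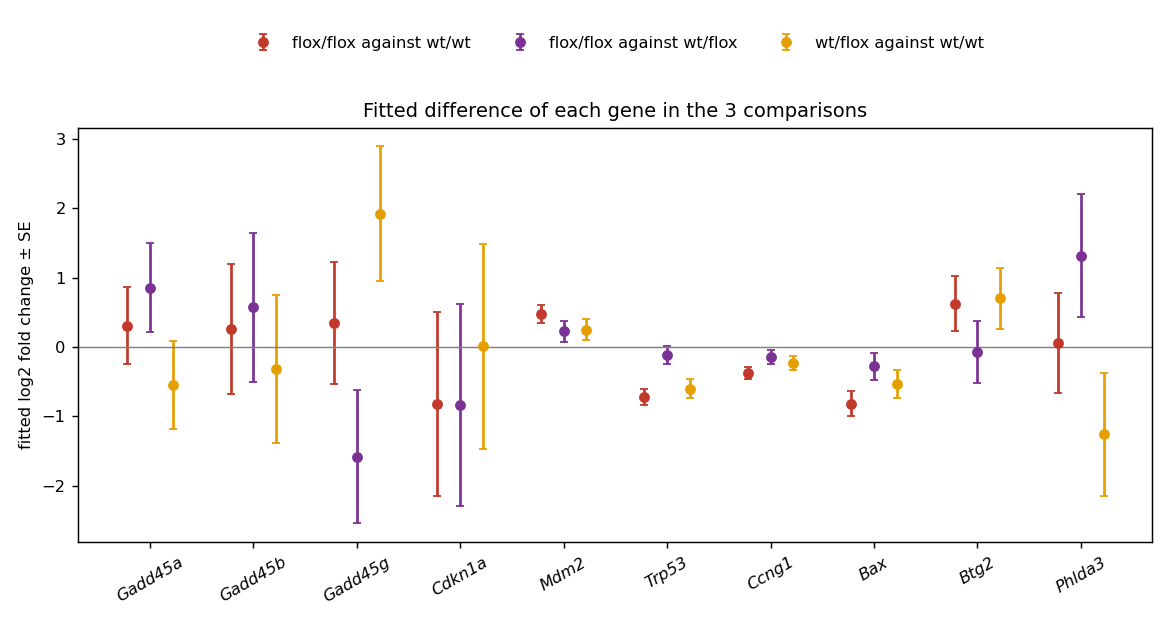
Fitted log2 fold change of each gene in the 3 comparisons, with the standard error of the fit as bars. Mdm2, Trp53, Ccng1 and Bax have short bars away from 0 in flox/flox against wt/wt, at 0.48, -0.72, -0.38 and -0.82, whereas Cdkn1a has -0.82 with a standard error of 1.33.

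Cdkn1a (chr17:29090976-29100727, plus strand) encodes p21, the inhibitor of cyclin-dependent kinases through which p53 arrests the cell cycle. It had 45.9, 2.89 and 2.66 CPM in flox/flox, 46.8 and 14.3 CPM in wt/flox and 3.46, 14.9 and 72.4 CPM in wt/wt. Each genotype held 1 library at 45.9 CPM or above, and flox/flox and wt/wt each held 1 or more at 3.46 CPM or below, so the groups overlapped. The highest level was 17.3 times the lowest within flox/flox, 3.28 times within wt/flox and 20.9 times within wt/wt. By their reads the high libraries were of both sexes, since flox/flox 1 and wt/flox 1 had Y-linked reads and wt/wt 3 had Xist. By label they were 11 weeks old in flox/flox 1 and wt/flox 1 and 7 weeks old in wt/wt 3, and the label of flox/flox 1 is 1 of the 2 contradicted by sex. The fitted log2 fold change was -0.82 ± 1.33 in flox/flox against wt/wt, -0.84 ± 1.46 in flox/flox against wt/flox and 0.01 ± 1.48 in wt/flox against wt/wt. It rested on flox/flox 1 and wt/wt 3, the libraries that stood apart: in flox/flox against wt/wt it was -3.45 without flox/flox 1 and 0.89 without wt/wt 3. Against wt/flox it was -3.47 without flox/flox 1 and 0.26 without wt/flox 1. The 3 genes nearest to Cdkn1a in profile, among 8640 genes with a mean of at least 5 CPM, were Ddit4 at a distance of 0.80, Tcim at 0.89 and Angptl4 at 0.91. The distance of Cdkn1a from its own mean was 1.82 on the same scale. Ddit4, for example, had 27.3, 4.24 and 4.04 CPM in flox/flox, 60.3 and 6.39 CPM in wt/flox and 10.4, 14.3 and 62.8 CPM in wt/wt, high in the same 3 libraries as Cdkn1a.

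Of the GADD45 genes, Gadd45g (chr13:51846678-51848468, plus strand) was the most abundant per kilobase. Gadd45g had 47.1, 6.74 and 18.5 CPM in flox/flox, 44.2 and 99.8 CPM in wt/flox and 8.20, 6.37 and 42.2 CPM in wt/wt. The wt/flox libraries were above every wt/wt library, narrowly so in wt/flox 1 against wt/wt 3, and flox/flox overlapped both groups. The fitted log2 fold change was 0.35 ± 0.87 in flox/flox against wt/wt, -1.58 ± 0.96 in flox/flox against wt/flox and 1.93 ± 0.97 in wt/flox against wt/wt. The value in flox/flox against wt/wt was -0.59 without flox/flox 1 and 1.72 without wt/wt 3. Without wt/wt 1 or wt/wt 2 it was -0.02 or -0.07. The high macrophage and neutrophil marker sums of wt/wt 3 go with its high Cdkn1a, Gadd45g and Gadd45b, and their part in these levels was not tested. Its nearest genes in profile were Rasgef1b at 0.78, Ctcflos at 0.80 and Igfbp1 at 0.83, where the distance of Gadd45g from its own mean was 1.42.

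Gadd45a (chr6:67035096-67037457, minus strand) had 2.11, 4.94 and 6.30 CPM in flox/flox, 1.13 and 3.81 CPM in wt/flox and 5.31, 2.09 and 3.41 CPM in wt/wt. All groups overlapped. Its fitted log2 fold change was 0.31 ± 0.56 in flox/flox against wt/wt, 0.85 ± 0.64 in flox/flox against wt/flox and -0.55 ± 0.64 in wt/flox against wt/wt. That against wt/wt was -0.03 without flox/flox 3 and 0.03 without wt/wt 2. The nearest profiles were those of Dusp6 at a distance of 0.31, Csf1 at 0.36 and Sult5a1 at 0.40, against 0.78 for Gadd45a from its own mean. Dusp6 had 41.4, 83.3 and 83.1 CPM in flox/flox, 13.8 and 41.8 CPM in wt/flox and 49.8, 26.1 and 45.6 CPM in wt/wt. As with Gadd45a, the lowest Dusp6 library was wt/flox 1.

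Gadd45b (chr10:80930073-80932204, plus strand) was scarce, with 0.733, 1.21 and 1.05 CPM in flox/flox, 1.22 and 0.114 CPM in wt/flox and 0.254, 0.321 and 1.93 CPM in wt/wt. The highest and the second lowest libraries were both wt/wt. The fitted log2 fold change was 0.26 ± 0.94 in flox/flox against wt/wt, 0.57 ± 1.07 in flox/flox against wt/flox and -0.32 ± 1.07 in wt/flox against wt/wt. Without wt/wt 3 it was 1.79 in flox/flox against wt/wt, and without wt/flox 1 it was 3.11 in flox/flox against wt/flox. Without wt/wt 1 and without wt/wt 2 the flox/flox against wt/wt value was -0.17 and -0.13. The nearest profiles were Lepr at 0.43, Nipal1 at 0.58 and Vcam1 at 0.71, against 1.29 for Gadd45b from its own mean. Lepr had 6.92, 25.6 and 14.6 CPM in flox/flox, 19.99 and 2.05 CPM in wt/flox and 2.17, 3.39 and 25.4 CPM in wt/wt.

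Btg2 (chr1:134075170-134079120, minus strand) encodes an antiproliferative protein that binds a deadenylase. It had 84.9, 66.8 and 109 CPM in flox/flox, 94.5 and 88.8 CPM in wt/flox and 56.9, 24.6 and 87.2 CPM in wt/wt. The wt/flox libraries lay above every wt/wt library and flox/flox overlapped both. Its fitted log2 fold change was 0.63 ± 0.40 in flox/flox against wt/wt, -0.08 ± 0.45 in flox/flox against wt/flox and 0.70 ± 0.44 in wt/flox against wt/wt. Against wt/wt the flox/flox value was 0.27 without wt/wt 2 and 1.09 without wt/wt 3. Phlda3 (chr1:135766119-135769136, plus strand) encodes a p53-induced repressor of AKT. Phlda3 had 0.189, 0.241 and 0.577 CPM in flox/flox, 0.0468 and 0.227 CPM in wt/flox and 0.264, 0.144 and 0.566 CPM in wt/wt, and all groups overlapped. The fitted log2 fold change was 0.06 ± 0.72 in flox/flox against wt/wt, 1.32 ± 0.89 in flox/flox against wt/flox and -1.26 ± 0.89 in wt/flox against wt/wt. Without flox/flox 3 it was -0.59 in flox/flox against wt/wt, and without wt/flox 1 it was 0.56 in flox/flox against wt/flox.

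For flox/flox against wt/wt, edgeR's quasi-likelihood test with Benjamini-Hochberg adjustment over all genes put 4 of the 10 members under 0.05, Mdm2 as higher and Trp53, Ccng1 and Bax as lower. Of all genes tested 29.9% were called, 15.1% higher and 14.7% lower. The same 4 members were those whose libraries did not overlap, against 45.0% of all genes (23.0% higher and 22.0% lower). The members were chosen with this comparison known, so nothing is read from these counts. The median log2 fold change was 0.16 over the members and 0.02 over all genes. The calls of Trp53 and Bax stood when any 1 library was left out, whereas that of Ccng1 was lost without wt/wt 1 (log2 fold change -0.37) and without wt/wt 2 (-0.39). The call of Mdm2 was lost without flox/flox 1 (0.37), flox/flox 3 (0.50), wt/flox 1 (0.48), wt/flox 2 (0.48), wt/wt 2 (0.44) and wt/wt 3 (0.41). Leaving out both libraries of contradicted sex leaves 1 flox/flox library, so calls there say little. The log2 fold changes were then -1.16 for Bax, -0.56 for Trp53, -0.40 for Ccng1 and 0.42 for Mdm2.

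In flox/flox against wt/flox, which lies within 1 batch mark, edgeR called 0 of the 10 members and 0% of all genes. At an unadjusted p under 0.05 there were 1240 genes and 0 members, DESeq2 called 74 genes and 0 members, and limma-voom called 0 of both. Sex is not balanced here, since both wt/flox libraries were male. With sex by transcripts as a term, 525 genes had an unadjusted p under 0.05 by edgeR, and with labelled sex 581. The libraries did not overlap for 2 members, Mdm2 as higher and Ccng1 as lower, against 27.3% of all genes (14.2% higher and 13.1% lower). In wt/flox against wt/wt edgeR called 1 member, Trp53 as lower, against 12.5% of all genes (6.58% higher and 5.89% lower). That call was lost without wt/wt 1 (log2 fold change -0.57), wt/wt 2 (-0.59) or wt/wt 3 (-0.63), where 2.68%, 0.259% and 6.87% of all genes were called. The log2 fold change of Trp53 was -0.66 without wt/flox 1 and -0.53 without wt/flox 2, each of which leaves 1 library in that group. The libraries did not overlap for 6 members, Gadd45g, Mdm2 and Btg2 as higher and Trp53, Ccng1 and Bax as lower, against 55.1% of all genes (25.8% higher and 29.3% lower). Both comparisons against wt/wt share those libraries.

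The rest of the pathway was followed in 137 further genes in 6 lists, of which 129 could be tested. Relative to wt/wt, 20 rose and 12 fell in flox/flox, which is 24.8% of those tested, against 29.9% of all genes. In flox/flox against wt/flox edgeR called 0, with 9 at an unadjusted p under 0.05, and DESeq2 and limma-voom also called 0 of them. In wt/flox against wt/wt 7 rose and 5 fell, or 9.30%, against 12.5% of all genes. That last count was 0 without wt/wt 2, 5 without wt/wt 1 and 5 without wt/wt 3, where 0.259%, 2.68% and 6.87% of all genes were called. Leaving out wt/flox 1 or wt/flox 2 leaves 1 library in that group, so a count there says little and losses of wt/flox calls there are not listed. The count in flox/flox against wt/wt was 16 without wt/wt 2, 18 without flox/flox 2 and 20 without flox/flox 3. Of all genes 15.0%, 20.7% and 23.9% were called there. Losses of single calls below are to be read beside these shares.

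**Figure D3:**
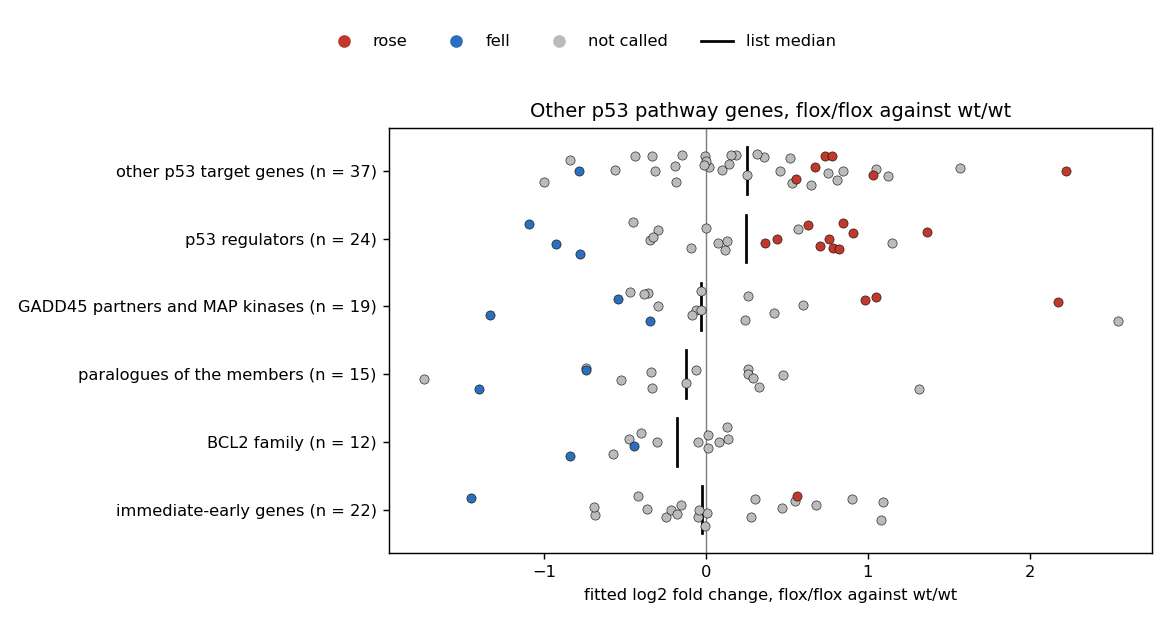
Fitted log2 fold change in flox/flox against wt/wt for each tested gene of the 6 lists, red where it rose, blue where it fell and grey where it was not called, with a line at the list's median. The p53 regulators hold 10 that rose and 3 that fell of 24, and the other p53 targets 6 that rose and 1 that fell of 37. Of all genes 29.9% were called.

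Among the other p53 targets, 6 of 37 rose and 1 fell in flox/flox against wt/wt, and 30 were not called, so 18.9% were called, against 29.9% of all genes. The list's median log2 fold change was 0.25. Ddb2, which recognises ultraviolet lesions in DNA, had 5.58, 5.36 and 6.65 CPM in flox/flox and 3.36, 2.21 and 3.03 CPM in wt/wt, a log2 fold change of 1.03 ± 0.19 with an adjusted p of 0.0074 by edgeR. Rrm2b, the p53-induced subunit of ribonucleotide reductase, rose by 0.68 ± 0.16 (adjusted p 0.0159, edgeR), with 4.68 ± 0.63 CPM in flox/flox and 2.93 ± 0.11 CPM in wt/wt (SD, n = 3 each). Polk, a translesion DNA polymerase, rose by 0.73 ± 0.19 (adjusted p 0.0212, edgeR). Rps27l, a ribosomal protein that binds MDM2, fell, with 57.8 ± 2.82 CPM in flox/flox and 99.7 ± 17.0 CPM in wt/wt (SD, n = 3 each) and a log2 fold change of -0.79 ± 0.15 (adjusted p 0.00861, edgeR). In wt/flox against wt/wt 2 of 37 rose and 0 fell, so 5.41% were called, against 12.5% of all genes. Ercc5 of nucleotide excision repair rose by 0.68 ± 0.16 (adjusted p 0.0365, edgeR) and the thiamine transporter Slc19a2 by 0.89 ± 0.23 (adjusted p 0.0443, edgeR). The flox/flox call of Rrm2b was lost without wt/wt 2 (adjusted p 0.0612, edgeR) and that of Polk without flox/flox 3, wt/wt 2 or wt/wt 3 (adjusted p 0.053 to 0.0699, edgeR). Both wt/flox calls were lost without any 1 wt/wt library, and that of Slc19a2 also without flox/flox 2 or flox/flox 3 (adjusted p 0.0513 to 0.106 for both, edgeR).

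Of the 6 lists the p53 regulators held the highest share called in flox/flox against wt/wt, 10 that rose and 3 that fell of 24 tested. That is 54.2%, against 29.9% of all genes (15.1% higher and 14.7% lower), with a median log2 fold change of 0.25. In wt/flox against wt/wt 5 rose and 2 fell (29.2%, against 12.5% of all genes). The lists were chosen with earlier results known, so nothing is read from these shares. Mdm4, the partner of MDM2 that masks the transactivation domain of p53, had 83.8, 74.9 and 95.2 CPM in flox/flox, 68.3 and 70.1 CPM in wt/flox and 47.9, 39.3 and 48.4 CPM in wt/wt. Its log2 fold change was 0.91 ± 0.13 in flox/flox against wt/wt (adjusted p 0.00319, edgeR) and 0.61 ± 0.14 in wt/flox against wt/wt (adjusted p 0.0337, edgeR). Atm, the kinase that signals double-strand breaks to p53, rose by 0.76 ± 0.13 in flox/flox (adjusted p 0.00537, edgeR) and by 0.78 ± 0.14 in wt/flox (adjusted p 0.0188, edgeR), both against wt/wt. Ep300, an acetyltransferase and coactivator of p53, rose by 0.63 ± 0.11 in flox/flox against wt/wt (adjusted p 0.00545, edgeR). In wt/flox against wt/wt Huwe1, a ubiquitin ligase of p53, rose by 0.82 ± 0.14 (adjusted p 0.0166, edgeR) and Prkdc, the catalytic subunit of DNA-dependent protein kinase, by 1.00 ± 0.22 (adjusted p 0.0289, edgeR). Rpl11, a ribosomal protein that inhibits MDM2 when free of the ribosome, had 59.8, 61.7 and 50.6 CPM in flox/flox, 80.8 and 63.4 CPM in wt/flox and 116, 137 and 115 CPM in wt/wt. Rpl11 has processed pseudogenes, so its count is uncertain. It fell by 1.10 ± 0.14 on the log2 scale in flox/flox against wt/wt (adjusted p 0.00245, edgeR) and by 0.77 ± 0.16 in wt/flox against wt/wt (adjusted p 0.0256, edgeR). The flox/flox calls of these 4 regulators stood without any 1 library. The wt/flox calls of Huwe1, Atm, Rpl11 and Prkdc were each lost without wt/wt 2 (adjusted p 0.0691 to 0.0921, edgeR). That of Rpl11 was also lost without wt/wt 1 and that of Prkdc also without wt/wt 3. No such check is given for the wt/flox call of Mdm4.

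Among the binding partners of GADD45 and the MAP kinases, 3 of 19 rose and 3 fell in flox/flox against wt/wt (31.6%, near the 29.9% of all genes), and the median was -0.03. Gadd45gip1, whose product binds the GADD45 proteins and sits in the mitochondrial ribosome, had 10.8, 10.4 and 9.22 CPM in flox/flox, 13.8 and 12.4 CPM in wt/flox and 24.9, 29.2 and 22.5 CPM in wt/wt. It fell by 1.33 ± 0.13 on the log2 scale in flox/flox (adjusted p 0.00126, edgeR) and by 0.96 ± 0.15 in wt/flox (adjusted p 0.0137, edgeR), both against wt/wt. Ccnb1, cyclin B1 of the kinase complex that GADD45 proteins inhibit, rose by 2.18 ± 0.60 (adjusted p 0.0287, edgeR) at low levels, with 1.67, 2.95 and 2.90 CPM in flox/flox and 0.497, 0.169 and 0.995 CPM in wt/wt. Tet2, a 5-methylcytosine dioxygenase, rose by 0.98 ± 0.26 (adjusted p 0.0245, edgeR). Ing1, a chromatin reader that recruits GADD45a in demethylation, fell by 0.54 ± 0.14 (adjusted p 0.0245, edgeR). Map3k4, which encodes MEKK4, had 28.4 ± 4.39 CPM in flox/flox and 29.1 ± 1.33 CPM in wt/wt (SD, n = 3 each) and was not called in any comparison. It was named after its values were seen. The calls of Ing1, Tet2 and Ccnb1 were lost without flox/flox 2 or flox/flox 3, those of Ing1 and Tet2 also without wt/wt 2 and those of Tet2 and Ccnb1 also without wt/wt 1, with adjusted p of 0.0513 to 0.0921 by edgeR. The wt/flox call of Gadd45gip1 was lost without wt/wt 2 (adjusted p 0.0578, edgeR).

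Of the members' paralogues, 0 of 15 rose and 2 fell in flox/flox against wt/wt (13.3%, against 29.9% of all genes, with 14.7% lower). Bak1, the other main executioner beside Bax, had 7.53, 6.48 and 6.71 CPM in flox/flox, 6.39 and 7.94 CPM in wt/flox and 13.3, 10.5 and 11.0 CPM in wt/wt. Its log2 fold change was -0.74 ± 0.15 in flox/flox (adjusted p 0.00879, edgeR) and -0.69 ± 0.17 in wt/flox (adjusted p 0.0361, edgeR), both against wt/wt. Bok, a further protein of that kind, fell by 1.40 ± 0.45 in flox/flox against wt/wt (adjusted p 0.0479, edgeR) with overlapping libraries. In the BCL2 family 0 of 12 rose and 2 fell (16.7%, against the same 29.9% of all genes). Bad, which binds and blocks BCL-XL, had 4.79, 5.31 and 5.33 CPM in flox/flox, 5.46 and 5.30 CPM in wt/flox and 8.54, 9.87 and 9.27 CPM in wt/wt. It fell by 0.84 ± 0.12 in flox/flox (adjusted p 0.00294, edgeR) and by 0.78 ± 0.14 in wt/flox (adjusted p 0.0169, edgeR). Bnip3l, a mitophagy receptor, fell by 0.44 ± 0.14 in flox/flox against wt/wt (adjusted p 0.0491, edgeR). The calls of Bok and Bnip3l were lost without flox/flox 2, flox/flox 3, wt/flox 1, wt/wt 1 or wt/wt 2 (adjusted p 0.0507 to 0.158, edgeR), that of Bok also without wt/flox 2 and that of Bnip3l also without wt/wt 3. The wt/flox calls of Bak1 and Bad were lost without wt/wt 2, and that of Bak1 also without flox/flox 2, wt/wt 1 or wt/wt 3.

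The immediate-early genes, transcription factors and phosphatases that answer within minutes to stress or handling of cells, were included because the GADD45 genes behave likewise. Of 22 tested, 1 rose and 1 fell in flox/flox against wt/wt (9.09%, against 29.9% of all genes). Their summed level was 566 to 833 CPM in flox/flox, 559 to 611 CPM in wt/flox and 442 to 828 CPM in wt/wt, so the groups overlapped. Dusp1, a MAP kinase phosphatase, rose by 0.56 ± 0.15 (adjusted p 0.0284, edgeR) and Klf2, a zinc-finger factor prominent in endothelium, fell by 1.46 ± 0.38 (adjusted p 0.0238, edgeR). Of the 10 endothelial markers 7 fell in the same comparison, and their part in the result for Klf2 was not tested. The call of Dusp1 was lost without any 1 flox/flox library, wt/wt 2 or wt/wt 3, and that of Klf2 without flox/flox 1, flox/flox 2 or wt/wt 3 (adjusted p 0.0512 to 0.104, edgeR).

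Exon length moved with these differences. Between flox/flox and wt/wt, the median log2 fold change of all tested genes was 1.01 for the 294 genes under 500 bases of exon, -0.49 for 500 to 1000 bases, -0.42 for 1000 to 2000, -0.17 for 2000 to 4000, 0.08 for 4000 to 8000 and 0.32 from 8000 bases up, so the shortest genes went against the climb seen from 500 bases on. The 20 pathway genes that rose had a median of 7499 bases of exon, and 16 exceeded 4000 bases. The 12 that fell had a median of 2504.5 bases, and 0 exceeded 4000 bases. In flox/flox against wt/flox the bins from 500 bases on ran from -0.04 to 0.06, and in wt/flox against wt/wt from -0.52 to 0.24, whereas genes under 500 bases had medians of 0.16 and 0.73. With the trend of all genes subtracted, the members' log2 fold changes in flox/flox against wt/wt were -0.67 for Trp53 (4045 bases), -0.47 for Bax (1576 bases), -0.28 for Ccng1 (3512 bases) and 0.43 for Mdm2 (5083 bases), each of the same sign as before. In wt/flox against wt/wt Trp53 was at -0.50 after subtraction. Of the p53 regulators named above, Mdm4 was then at 0.52, Atm at 0.48, Ep300 at 0.25 and Rpl11 at -0.92 in flox/flox against wt/wt. In wt/flox against wt/wt Prkdc was at 0.70, Atm at 0.56, Huwe1 at 0.35, Mdm4 at 0.28 and Rpl11 at -0.56.

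**Figure D4:**
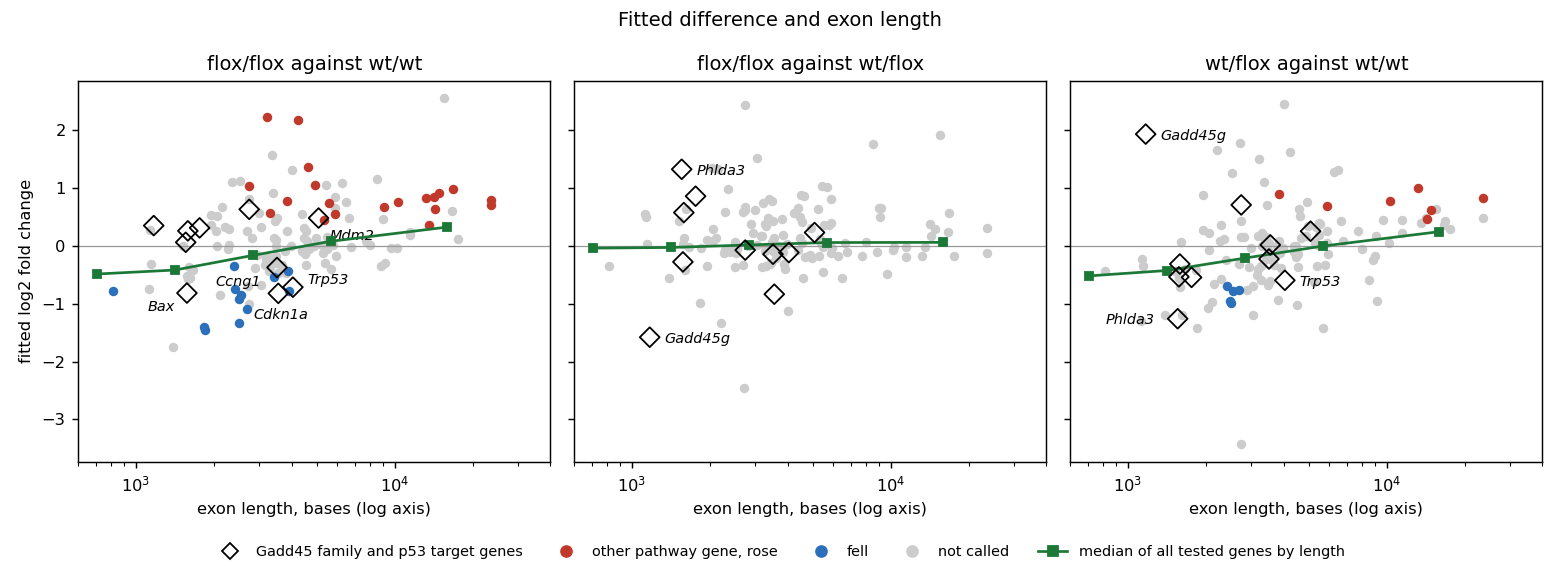
Fitted log2 fold change against exon length (log axis) in the 3 comparisons, for the members (diamonds) and the other pathway genes (points), with the median of all tested genes in bins of length as a green line. Genes under 500 bases, whose median was 1.01 in flox/flox against wt/wt, are not drawn. The line climbs from -0.42 to 0.32 between the bins from 1000 and from 8000 bases in flox/flox against wt/wt. Pathway genes that rose there had a median of 7499 bases of exon, against 2504.5 for those that fell, and their ranges overlapped.

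Reads on the strand opposite to a gene were counted apart by the authors and played no part in the choice of the members. They made up 6.43% to 7.78% of the reads of both strands over all genes in each library. Gadd45a stood above that with 27.5%, 26.9% and 28.4% in flox/flox, 40.9% and 30.7% in wt/flox and 23.6%, 25.8% and 22.2% in wt/wt. E230016M11Rik is annotated across Gadd45a on the other strand, with 1.51, 2.87 and 5.40 CPM of its own in flox/flox, 1.28 and 2.91 CPM in wt/flox and 2.47, 0.972 and 0.849 CPM in wt/wt. Gadd45g, with no annotated gene on the other strand, had 15.7%, 17.3% and 16.2% in flox/flox, 13.6% and 13.9% in wt/flox and 13.7%, 14.0% and 13.6% in wt/wt. Bax had 10.5%, 13.6% and 15.9% in flox/flox, 9.90% and 9.82% in wt/flox and 8.51%, 7.89% and 8.79% in wt/wt. Every flox/flox library was above every wt/wt library for these 3 genes and for Trp53, as for 17.4% of all genes. The opposite held for Cdkn1a, with 3.05% to 5.49% in flox/flox and 5.77% to 7.60% in wt/wt, and for Mdm2, with 4.47% to 5.61% in flox/flox and 5.89% to 7.28% in wt/wt, as for 10.0% of all genes. In either direction the groups were apart for 6 of the 10 members and 27.4% of the 14595 genes with reads in these libraries. Each share has the sense reads, known when the members were chosen, in its denominator. For Bax these were lower in flox/flox, with 72 to 104 opposite-strand reads in flox/flox and 84 to 101 in wt/wt. Sense levels of Trp53 were also lower in flox/flox, with 78 to 132 opposite-strand reads against 111 to 152 in wt/wt. Those of Mdm2 were higher in flox/flox, with 204 to 205 opposite-strand reads against 175 to 191 in wt/wt. The shares of Ccng1 and Btg2 overlapped between flox/flox and wt/wt. Cdkn1a is overlapped by AC167363.2 on the other strand. Gadd45b and Phlda3 had 0 to 17 opposite-strand reads per library.

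**Figure D5:**
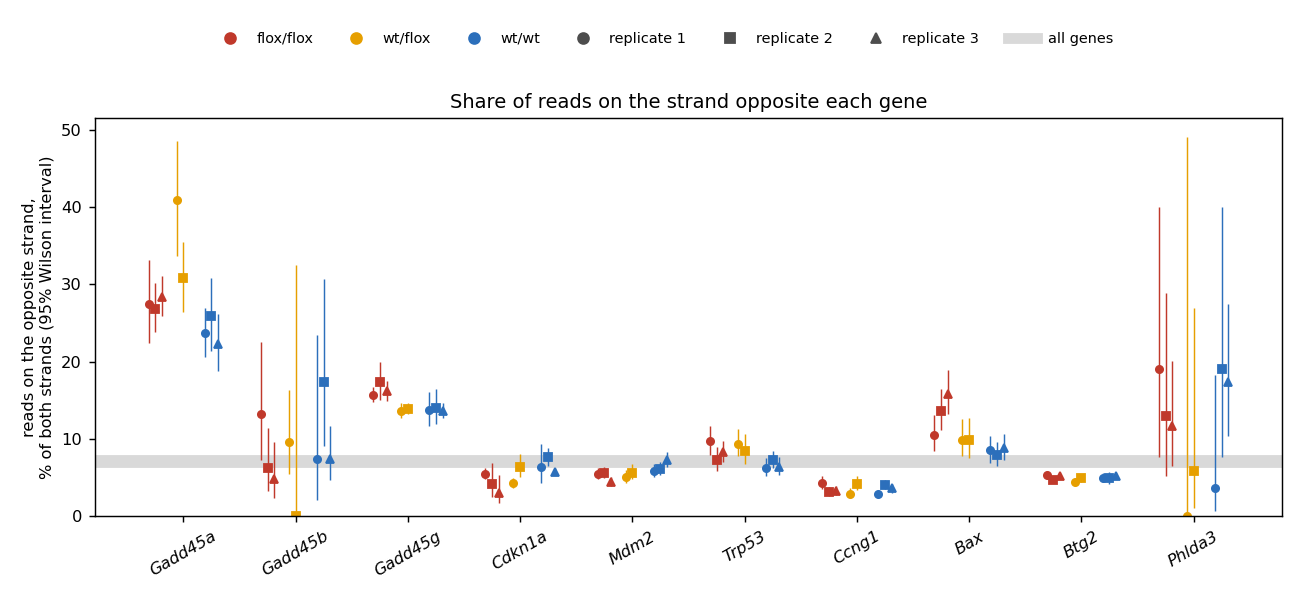
Share of reads on the strand opposite to each gene, in percent of both strands, per library with 95% Wilson intervals, and the range over all genes as a grey band. Gadd45a, Gadd45g and Bax lie above the band in every library, and the flox/flox points of these genes and of Trp53 lie above the wt/wt points, whereas those of Cdkn1a and Mdm2 lie below them.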

How the data were processed

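Bulk RNA sequencing of 8 mice gave 1 table per library. The deposited values are raw counts of reads per gene symbol on the sense and the antisense strand, per the file headers. Per the labels' protocols, the libraries kept strand and were made after removal of ribosomal RNA. The build GRCm38 (mm10) and DESeq2 are named in the submitters' processing notes; aligner, counter and annotation were not given in the sources used here. Every table holds 25229 genes and 5 rows that name no gene, left out of library sizes. They hold reads in no gene (22.2% to 40.0% of the sense reads) and ambiguous ones (0.317% to 0.668%).

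Sense counts were fitted with edgeR 4.0.16 (R 4.3.3) by glmQLFit and glmQLFTest, with TMM scaling, filterByExpr, genotype as the only term and all 8 libraries sharing 1 estimate of the spread. The filter left 14728 genes. P-values were two-sided and Benjamini-Hochberg adjusted over them at 0.05, and "called" means under it. Each label names a mouse as the sample. Labelled sex was no term, since 2 libraries contradict it. CPM were scaled by the TMM library sizes, and log2 CPM used a prior count of 0.5. The scripts were tested on simulated counts. No pair of libraries within a group agreed within sampling noise, by a chi-square of their counts. The precision of low genes is limited by their reads, and intervals and floors cover counting error only (with 0 reads counted, up to 3 are allowed at 95%). Coordinates and exon lengths are from GENCODE M21 on GRCm38, in which 24321 symbols (96.4%) matched 1 gene, and promoters from RefSeq. All 10 members had a RefSeq promoter.

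The members and the 6 lists were chosen with earlier results of these data known, so no list is independent evidence of its direction. The named genes are the 10 members, Adar, Ifih1, up to 4 called genes of smallest adjusted p per list and comparison, and for the GADD45 genes and Cdkn1a the 3 genes of smallest profile distance with a mean of at least 5 CPM, passing over predicted genes, Rik clones and small RNAs. The 21 alternatives were other size factors (RLE, upper quartile), no filter, a mean of at least 1 CPM, DESeq2 1.42.0, limma-voom (limma 3.58.1), sex as labelled or by transcripts as a term, a replicate block alone or with sex by transcripts, only the 2 groups compared, leaving out the libraries of contradicted sex or each library, and summing both strands. A length trend was also subtracted.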

Additional observations from a re-analysis of the deposited data

Results flagged for a closer look

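Reads opposite to 4 of the members, which entered no comparison of sense levels, made up a larger share in the lowest flox/flox library than in the highest wt/wt library. The share is taken of both strands, so the sense reads, known when the members were chosen, are in its denominator. It can therefore restate a difference in sense level, as sense levels of Trp53 and Bax were lower in flox/flox. For Gadd45a the lowest flox/flox share was 26.9% (95% Wilson interval 23.8% to 30.1%) and the highest wt/wt share 25.8% (21.4% to 30.8%). For Gadd45g they were 15.7% (14.7% to 16.8%) in flox/flox and 14.0% (11.9% to 16.5%) in wt/wt. For Trp53 they were 7.28% (5.87% to 8.99%) in flox/flox and 7.26% (6.22% to 8.45%) in wt/wt. For Bax they were 10.5% (8.46% to 13.1%) in flox/flox and 8.79% (7.29% to 10.6%) in wt/wt. Such a separation was seen in 17.4% of all genes, and the opposite one in 10.0%, which included Cdkn1a (at most 5.49% in flox/flox, at least 5.77% in wt/wt) and Mdm2 (at most 5.61% in flox/flox, at least 5.89% in wt/wt). The intervals of the 4 genes overlap in each case, and the difference between groups was not tested. Pooled over libraries, Gadd45a had 27.7% in flox/flox against 23.7% in wt/wt, Gadd45g had 16.0% in flox/flox against 13.7% in wt/wt, Trp53 had 8.36% in flox/flox against 6.67% in wt/wt and Bax had 13.3% in flox/flox against 8.38% in wt/wt. Over all genes the share was 7.58% to 7.78% in flox/flox and 7.17% to 7.51% in wt/wt. The wt/flox shares of Gadd45a, 40.9% and 30.7%, were above every flox/flox library. Those of Gadd45g (13.6% and 13.9%) and Bax (9.90% and 9.82%) were below every flox/flox library, and those of Trp53 (9.34% and 8.48%) overlapped flox/flox. Genotype and the batch mark cannot be told apart in flox/flox against wt/wt.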

How the results depend on the processing

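Counts of calls moved with the samples used more than with the scaling. For the other pathway genes in flox/flox against wt/wt (32 called), 16 to 32 were called when 1 library was left out. For the members there (4 called) the counts were 2 to 4 when 1 library was left out, the lowest without wt/wt 2. Leaving out both libraries of contradicted sex leaves 1 flox/flox library, so counts of that comparison are not given there. In wt/flox against wt/wt (12 pathway genes and 1 member called), DESeq2 called 24 pathway genes and 22.3% of all genes. Leaving out 1 flox/flox or wt/wt library gave 0 to 15 pathway genes and 0 to 2 members. With only the 2 groups compared, 2 members and 16.5% of all genes were called. In flox/flox against wt/flox all counts of pathway genes and members were 0 under every alternative. Of the 18 named pathway genes called in flox/flox against wt/wt, 5 (Atm, Bad, Gadd45gip1, Mdm4 and Rpl11) were called in all 21 alternatives. Calls over all genes moved as well. With 1 flox/flox or wt/wt library left out, 15.0% to 32.2% of all genes were called in flox/flox against wt/wt, where all 8 libraries gave 29.9%. In wt/flox against wt/wt the same range was 0.259% to 17.2%, where all 8 gave 12.5%. The cause of these shifts was not tested, other than that fewer samples entered.

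Replicate numbers go with age in each group, but no label ties them to a litter, batch or day, and they were not taken to pair the mice. The deviations of same-numbered flox/flox and wt/wt libraries correlated at 0.28, 0.01 and 0.44, and flox/flox 1 correlated best with wt/wt 2 (0.33). With the replicate block, 4 members and 32.6% of all genes were called in flox/flox against wt/wt. In wt/flox against wt/wt 0 members and 9.77% of all genes were called, and Trp53 was at -0.58. With the replicate block and sex by transcripts together, 10 pathway genes and 0 members were called in flox/flox against wt/wt. Over all genes the calls there went down to 1786 (12.1%). In wt/flox against wt/wt 0 of all genes were then called, so the 0 pathway genes and 0 members there say nothing about them.

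Depth limits Phlda3 and Gadd45b most, at 4 to 76 and 8 to 211 reads per library.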
